A study of Mus musculus with 8 samples.

Results

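The genes described here are 37 that mark the cells of brain blood vessels, namely endothelial cells, pericytes and smooth muscle cells, together with matrix genes of the vessel wall. They were taken from a written list of symbols, and all 37 were among the 24421 gene rows of each table. The samples are 8 RNA-seq libraries from C57BL/6 mice. Otp-Cre and ROSAfsTRAP were carried by all of them. The 4 KO libraries are Otp-Cre; Cicflox/flox; ROSAfsTRAP, so that Cre removes floxed Cic, and the 4 Control libraries are Otp-Cre; ROSAfsTRAP. Cre driven by Otp acts in cells of the Otp lineage, a set of hypothalamic and amygdalar neurons, and there switches on a tagged ribosomal protein, so that ribosome-bound RNA of those cells can be purified from dissected hypothalamus and medial amygdala (translating ribosome affinity purification, TRAP). Vascular cells are not the cells the purification aims at, and no library of unpurified tissue was analysed here. Replicates carry numbers, but nothing in the labels says that each was a separate animal. All p-values therefore reflect only how far these samples spread, which may be technical. The labels give no age.

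Brain capillaries are tubes of endothelial cells sealed by tight junctions. Together with specific transporters these junctions form the blood-brain barrier. Pericytes sit on the capillary wall inside a shared basement membrane, and smooth muscle cells wrap the arterioles and set their width. Endothelial cells depend on the VEGF and Tie receptor kinases, on SOXF and ETS transcription factors and on PDGF signals that hold pericytes in place.

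Gene counts per library ran from 33223878 to 57300362, and 1 CPM, the unit of level used below (read counts over TMM-scaled library size), stood for 32 to 58 reads. The targeted gene, Cic, did not overlap between the groups. KO libraries had 44.9, 34.5, 59.3 and 37.5 CPM, and Control libraries 103, 72.4, 101 and 101 (log2 fold change -1.10, SE 0.21, edgeR adjusted p = 0.0022). Lists of 10 neuron and 10 Otp-lineage markers had a median level of 46.2 and 15 CPM per kilobase of exon. Other cells that the purification does not aim at varied widely. The 11 oligodendrocyte, 10 astrocyte, 11 microglia and 7 ependymal markers had medians of 37.5, 11.2, 0.897 and 1.84 CPM per kilobase. The 23 endothelial genes had a median of 0.192, the 7 pericyte genes 0.449 and the 3 smooth muscle genes 1.68 CPM per kilobase, while the median over all genes tested that have a length was 3.68. Genes tested had passed a filter on low counts, which Tie1 and Sox17 among the 23 had not. Most vascular genes were thus present at low levels in the purified RNA of both groups. In bulk RNA, fewer cells of a type and less RNA per cell cannot be told apart.

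Of the 37 genes 3 had a mean above 20 CPM before division by length, and each of these is also expressed by brain cells other than vascular ones. Bsg, which encodes the barrier glycoprotein basigin, had 215 CPM per kilobase, and Sparc, a secreted matrix-binding protein, had 196. The ranges of these genes over the 8 libraries overlapped (177 to 263 and 131 to 289). Slc2a1, the glucose transporter GLUT1, followed at 8.11 CPM per kilobase, and its range of 6.17 to 9.71 did not meet that of Sparc. Below it the order was Myl9 (5.39), Itm2a (4.54), Igfbp7 (4.30), Egfl7 (2.91), Vtn (2.54), Acta2 (1.68), Ly6a (1.38), Rgs5 (1.23) and Col4a2 (1.14). Each range from Slc2a1 downwards overlapped the next in the order, so no neighbours there differed beyond their spread. At the lower end were the receptor kinases Tek (0.0977), Tie1 (0.0728) and Kdr (0.0684), the sialomucin Emcn (0.0673), the transcription factor Sox17 (0.0537) and the clotting factor carrier Vwf (0.0481).

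**Figure D1:**
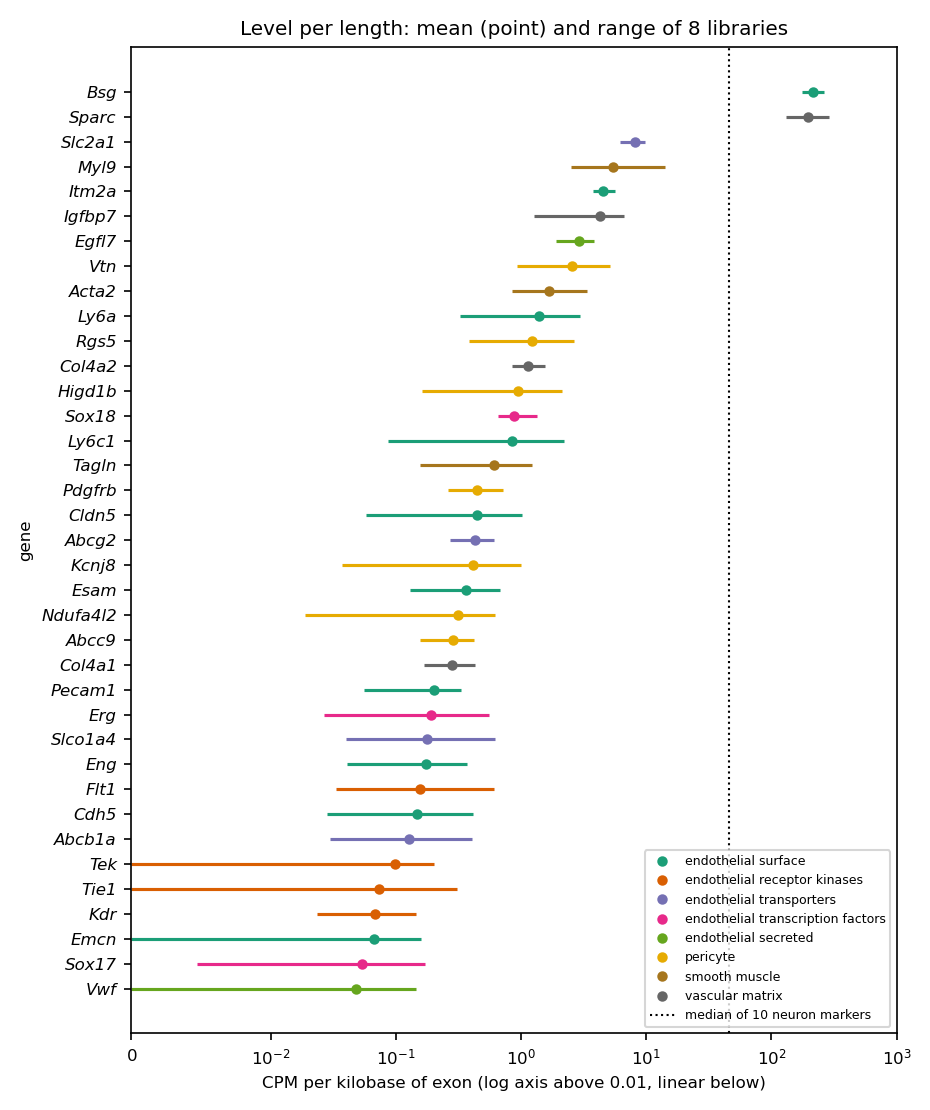
Mean level of each vascular gene in CPM per kilobase of exon (points) with the lowest and highest of 8 libraries (lines), on an axis that is logarithmic above 0.01 and linear below. Bsg (215) and Sparc (196) stand above the median of 10 neuron markers (46.2, dotted line), and the other 35 genes lie below it.

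By CPM not divided by length, 21 of the 37 had a mean under 2, 13 lay between 2 and 20, and 3 were above 20. Among all genes tested, 18.5% had a mean under 2 CPM. Those genes had passed a filter on low counts, which Tie1 and Sox17 among the 21 had not, so the shares are not strictly alike. Low levels came with wide spread. In the low class, the 14 members with more than 3 reads in every library had a median ratio of 11.1 between the highest and the lowest library, against 4.50 for all 2140 tested genes of that class with such reads. Between 2 and 20 CPM the ratio was 2.74 for the 13 members and 1.92 for 5310 genes, and above 20 CPM it was 1.57 for 3 members and 1.49 for 7275 genes. Counts of 0 occurred for Emcn in KO replicate 1, where 0 reads allow up to 0.0618 CPM, for Vwf in KO replicate 3 (up to 0.0742), for Tie1 in Control replicate 2 (up to 0.0706) and for Tek in Control replicate 3 (up to 0.0794). These limits rest on 3 reads and cover counting error only, since the counts carry no molecular identifiers.

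Much of that spread followed individual libraries and not the groups. Control replicate 1 held the highest value of 17 of the 37 genes and the lowest of 0, and KO replicate 4 held the highest of 14. KO replicate 1 held the lowest value of 17 and the highest of 0. Over all 15438 genes tested, Control replicate 1 held the highest value of 1264 and the lowest of 1124. KO replicate 4 held the highest of 2968 and the lowest of 2801, more of both than any other library. For KO replicate 1 these counts were 2288 and 2017. With each gene set to its mean over the 8 libraries, the median of the 37 genes was 163% in Control replicate 1 and 134% in KO replicate 4. It was 86.9% and 79.9% in KO replicates 2 and 3, 66.8%, 62.4% and 91.1% in Control replicates 2, 3 and 4, and 52.0% in KO replicate 1. The same median over all genes tested was 96.8% to 99.3% in every library. TMM scaling keeps that median nearly level by design, so it does not show how far short lists of low genes vary. Without Bsg, Sparc and Slc2a1 the remaining 34 genes gave 166%, 135% and 50.1% in Control replicate 1, KO replicate 4 and KO replicate 1. Other vascular lists were read by the same median, in the order endothelial, barrier, ligand and receptor, mural and basement membrane genes. They were at 138%, 111%, 105%, 131% and 151% in Control replicate 1. In KO replicate 1 they were at 67.4%, 75.3%, 82.1%, 79.9% and 73.1%. In KO replicate 4 they were at 102%, 91.7%, 86.0%, 94.0% and 94.0%, so these lists did not share the high level of the 37 genes there.

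**Figure D2:**
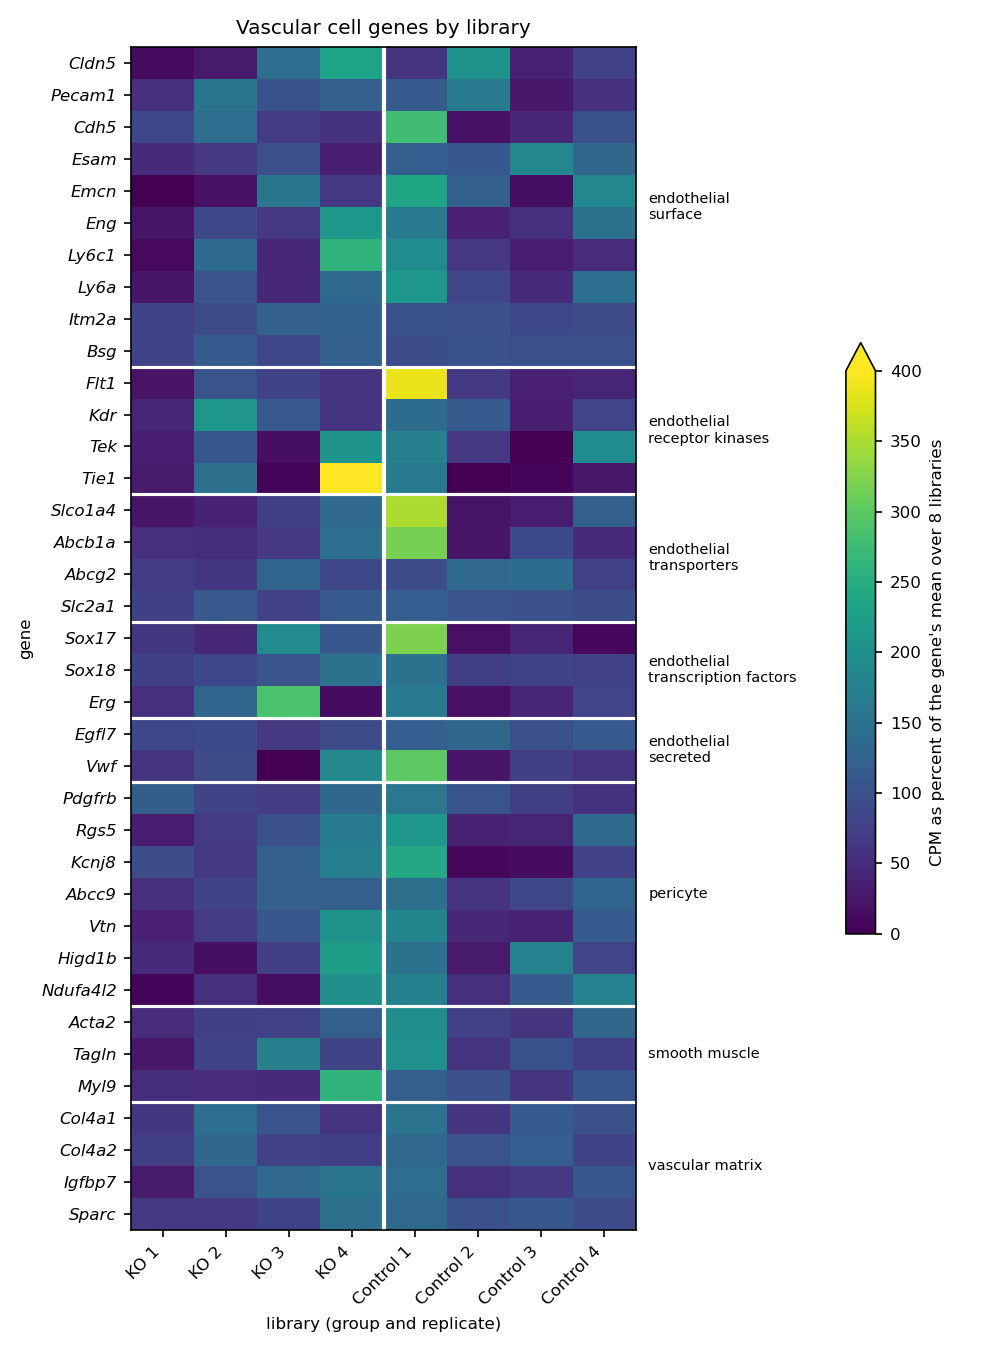
Level of each vascular gene (rows, grouped by role) in each library (columns), as CPM in percent of that gene's mean over the 8 libraries (colour, linear scale, with the values above its end drawn in the end colour). Bright cells gather in Control 1, which holds the highest value of 17 genes, and in KO 4, which holds that of 14, and dark cells in KO 1.

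Genes of other cells that lie around vessels were also unevenly spread over these libraries. The 14 genes of perivascular fibroblasts and meninges, such as collagen I and decorin, were at 159% in Control replicate 1, 141% in Control replicate 4 and 27.0% in Control replicate 3 by the same median, and at 58.1% to 110% in KO. Their summed level was 25.6 to 82.2 CPM in KO and 19.1 to 88.7 in Control. The 11 microglia markers were at 186% and 173% in Control replicates 1 and 4 and at 40.4% to 108% elsewhere, and their sum was 24.4 to 44.4 CPM in KO and 24.5 to 69.9 in Control. For the 11 oligodendrocyte markers the extremes were KO replicate 1 at 58.8% and Control replicate 4 at 125% (sum 1699 to 3153 CPM in KO and 2688 to 3444 in Control), and for the 10 astrocyte markers KO replicate 1 at 73.3% and, equally high, KO replicate 2 and Control replicate 1 at 112% (sum 884 to 1376 and 997 to 1431 CPM). No marker on the microglia, oligodendrocyte and astrocyte lists was at 0 in any library, and 1 perivascular gene was. KO replicate 4, where vascular genes were high, had microglia markers at 108%. The part of these other cells in the vascular values was not tested. Of 9 red blood cell genes, 6 were listed at 0 in all libraries, all of them globins, and the sum of all 9 was at most 1.33 CPM. Alignments that were not unique, 63.3% to 81.9% of all records, were counted for no gene. Whether this or the annotation gave the 0 counts was not tested, so they are not read as absence of blood.

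**Figure D3:**
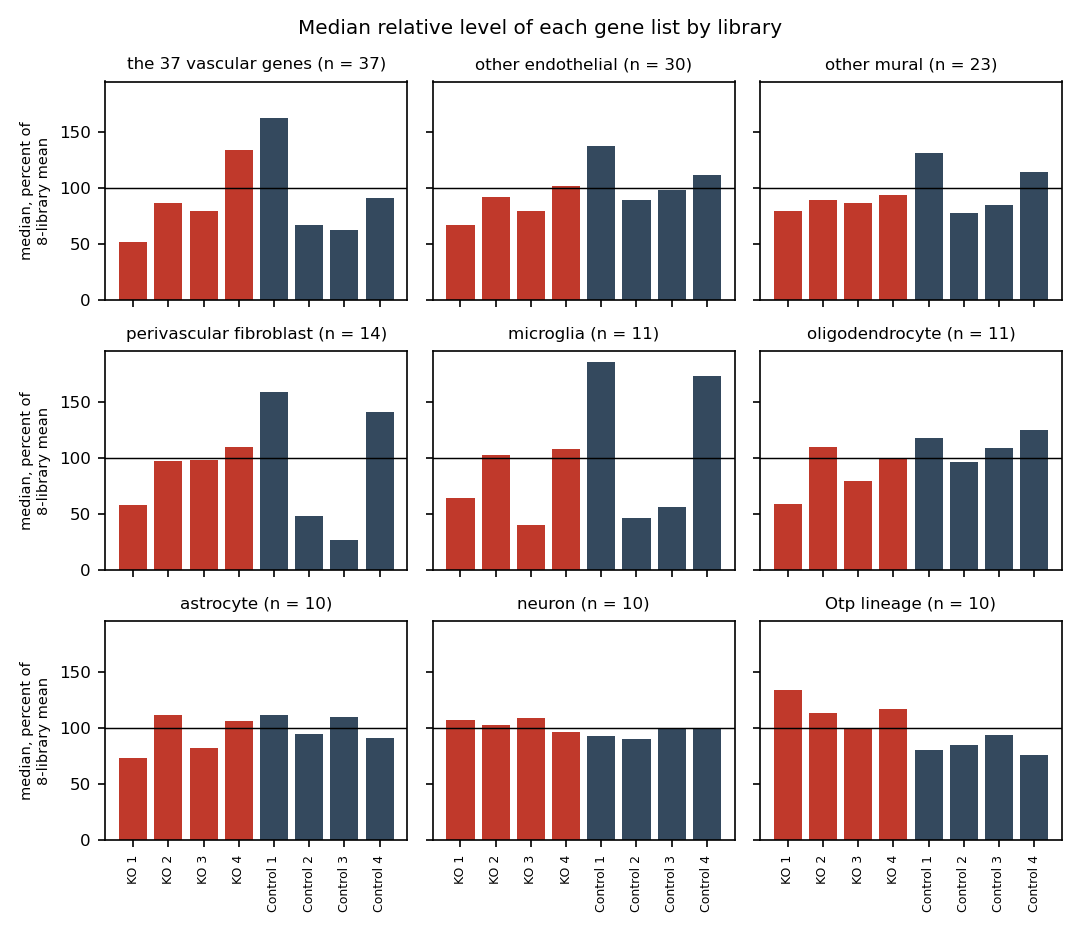
Median over the genes of each list of the CPM in percent of the gene's mean over 8 libraries (bars; red KO, dark Control; the line marks 100%), for the 37 vascular genes, 2 further vascular lists and 6 lists of other cells. Control 1 is the highest library for the vascular genes (163%) and for microglia markers (186%), and KO 1 is the lowest for the vascular genes (52.0%).

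Loss of Cic was set against Control to ask whether vascular transcripts in the purified RNA differ between the genotypes. Of the 37 genes 35 passed the filter on low counts and were tested, and Tie1 and Sox17 did not. With edgeR's quasi-likelihood test and Benjamini-Hochberg adjustment over all 15438 genes tested, 0 of the 35 passed an adjusted p of 0.05 in either direction, where 0.259% of all genes did (0.0648% lower and 0.194% higher in KO). The count was also 0 with DESeq2. At an unadjusted p of 0.05 there were 2 of 35, both lower in KO and by both tools, where 10.6% of all genes passed at that level, 4.53% on the lower and 6.06% on the higher side. The 4 KO and 4 Control values did not overlap for the same 2 genes, Egfl7 and Esam, against 5.93% of all genes tested, 2.91% on the lower and 3.01% on the higher side. Set against these, 2 of 35 is a share near the background. The count at an unadjusted p of 0.05 moved with single libraries. It was 5 of 35, all lower, without KO replicate 4, 3 of 36, all lower, without KO replicate 2 or 3, and 1 of 37, lower, without KO replicate 1 or Control replicate 4. Without Control replicate 1 it was 2 of 35, of which 1 was lower, and with both Control replicate 1 and KO replicate 4 left out, an alternative chosen after seeing the data, it was 4 of 34, of which 3 were lower. The share of all genes at that level is given for the main fit only. Counts from the other fits therefore have no background beside them and are not read as a vascular change.

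The fold change was below 0 for 22 of 35 genes (62.9%, against 46.2% of all genes tested), and the median log2 fold change was -0.27 against 0.025 over all genes. That lean depended on single libraries of both groups. Without Control replicate 1 the count was 12 of 35 and the median 0.19, without KO replicate 4 it was 30 of 35 and -0.44, and without KO replicate 1 it was 19 of 37 and -0.01. With both Control replicate 1 and KO replicate 4 left out, 19 of 34 were below 0 and the median was -0.07. In each of these fits 0 genes passed.

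**Figure D4:**
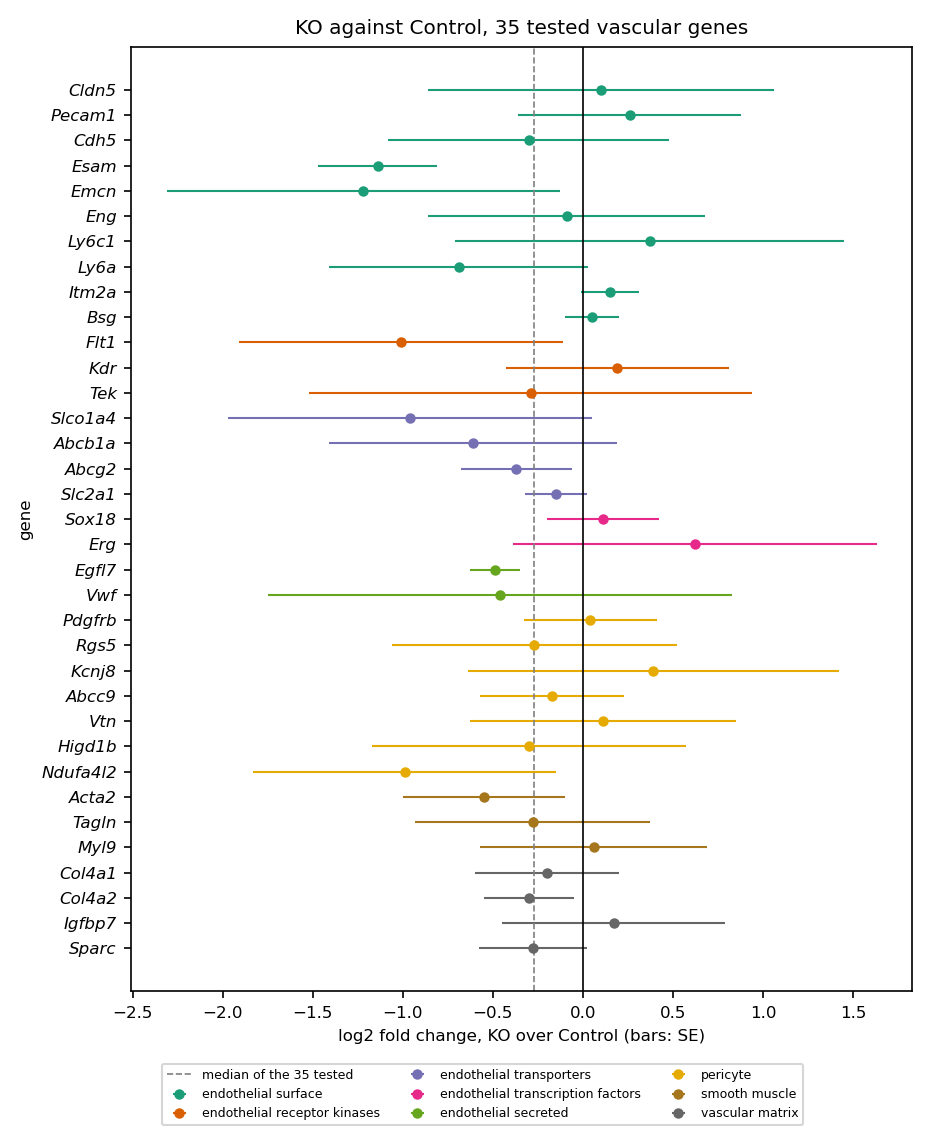
Log2 fold change of KO over Control from edgeR for the 35 tested vascular genes (points, coloured by role), with the 0 line and the median of the 35 (-0.27, dashed). Bars are the SE of the difference of mean log2 CPM. Esam and Egfl7 lie below 0 with SEs of 0.33 and 0.14, while Cldn5, with an SE of 0.96, spans both sides.

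Among the secreted endothelial products, Egfl7 had the smallest p of the 37 genes. It encodes a matrix-bound factor of endothelial cells. Its level was 8.95, 9.39, 6.88 and 9.46 CPM in KO replicates 1 to 4 and 12.4, 13.8, 10.4 and 12 CPM in Control replicates 1 to 4. Every KO library lay below every Control library, with means of 8.67 ± 1.21 and 12.2 ± 1.39 (SD, n = 4 each). The ratio of KO to Control was 0.712. On the log2 scale the difference was -0.49 (SE 0.14), with an edgeR adjusted p = 0.321, which did not pass. The value stayed between -0.56 and -0.39 when single libraries were left out, so Control replicate 1 did not set it. In GRCm38, Egfl7 (ENSMUSG00000026921.18) occupies chromosome 2, plus strand, 26580014 to 26593120. Its exons overlap those of Agpat2 and Mir126b on the opposite strand and of Mir126a on its own. Whether reads were counted by strand is not stated, so those in the shared stretches cannot be told apart. The same limit holds for Abcc9, Eng, Igfbp7, Ndufa4l2 and Tagln, whose exons overlap those of another counted gene on the opposite strand. It also holds for Col4a1 and Col4a2, which overlap each other. Vwf, von Willebrand factor, was at 0 to 1.45 CPM in KO and 0.188 to 2.31 in Control, and the groups overlapped.

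Because Egfl7 had the smallest p, the 250 bases before 2 of its 3 RefSeq starts are printed below, 5′ to 3′, with the sequence CAGGAAG or its reverse complement CTTCCTG in capitals. CAGGAAG contains the GGAA core that ETS factors such as Erg bind. Myl9 is shown beside them for its CArG box, the site type of serum response factor, also in capitals. Sequences are from RefSeq on GRCm38.p6.
Egfl7 first start, plus strand, chr2:26580833-26581082: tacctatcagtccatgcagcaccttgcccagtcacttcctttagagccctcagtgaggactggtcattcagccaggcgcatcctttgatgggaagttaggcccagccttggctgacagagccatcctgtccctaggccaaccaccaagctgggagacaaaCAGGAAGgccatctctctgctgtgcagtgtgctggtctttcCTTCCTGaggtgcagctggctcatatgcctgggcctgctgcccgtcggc
Egfl7 second start, plus strand, chr2:26583615-26583864: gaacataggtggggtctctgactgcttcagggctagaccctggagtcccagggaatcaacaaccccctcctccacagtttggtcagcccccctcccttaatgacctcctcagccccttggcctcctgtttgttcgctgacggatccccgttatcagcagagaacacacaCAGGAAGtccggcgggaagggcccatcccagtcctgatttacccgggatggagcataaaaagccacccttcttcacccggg
Myl9, plus strand, chr2:156775214-156775463: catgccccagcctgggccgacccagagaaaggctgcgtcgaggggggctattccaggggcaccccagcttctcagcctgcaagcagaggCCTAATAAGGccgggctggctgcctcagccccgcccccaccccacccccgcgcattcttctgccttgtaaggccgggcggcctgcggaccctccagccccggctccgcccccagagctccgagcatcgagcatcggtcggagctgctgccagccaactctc

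The first Egfl7 stretch holds the core at -90 to -84 and, reversed, at -49 to -43 from the start, and the second at -81 to -75. The third start of Egfl7, at chr2:26586386-26586635, has none. Promoter windows of 300 bases, from 250 before to 50 after the start, were at hand for 25 of the 37 genes, with 32 starts. CAGGAAG on either strand was in 7 of the 32 windows, those of Abcg2, Egfl7, Emcn, Erg and Itm2a, and in 13.3% of all 32851 windows. The related core CCGGAAG was in 0 of the 32 and in 8.86% of all. Of the octamers bound by Capicua, the protein made from Cic, TGAATGAA was in 0 of the 32 windows and 1.30% of all, and TGAATGGA in 0 and 1.21%. A CArG box was in 1 window, that of Myl9 at -161 to -152, and in 1.63% of all. These are matches of letters on both strands, and the motifs share no bases with one another in the windows shown.

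Of the 10 genes of the endothelial surface 5 were below 0 and 5 above, none passed, and the median was -0.02. Esam, an adhesion molecule of endothelial tight junctions, measured 0.515, 0.689, 1.01 and 0.370 CPM in KO replicates 1 to 4 and 1.25, 1.15, 1.93 and 1.41 CPM in Control replicates 1 to 4. The groups did not overlap, but the reads behind these values numbered 12 to 41 per KO library and 49 to 73 per Control library. The means were 0.647 ± 0.278 and 1.44 ± 0.348 CPM (SD, n = 4 each). On the log2 scale the difference was -1.14 (SE 0.33), with an edgeR adjusted p = 0.432, which did not pass. Esam (ENSMUSG00000001946.14) occupies chromosome 9, plus strand, 37528078 to 37538319, and overlaps no other counted gene.

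Cldn5 encodes claudin 5, the main sealing protein of the barrier junction. Its level was 0.0824, 0.184, 0.891 and 1.45 CPM in KO replicates 1 to 4 and 0.377, 1.29, 0.238 and 0.492 CPM in Control replicates 1 to 4. High and low libraries were found in both groups, and the fold change was 0.10 with an SE of 0.96 (edgeR adjusted p = 0.982). With this SE neither direction was resolved. Emcn, a sialomucin of capillary and venous endothelium, was at 0, 0.0689, 0.569 and 0.246 CPM in KO and 0.856, 0.447, 0.0529 and 0.671 in Control, a log2 difference of -1.22 (SE 1.09, edgeR adjusted p = 0.716), and each group had a library at or under the level of 3 reads. Pecam1 (CD31, 0.344 to 2.05 CPM over the 8 libraries), Cdh5 (VE-cadherin, 0.118 to 1.73), Eng (the TGF-beta co-receptor endoglin, 0.165 to 1.51), Ly6c1 (0.144 to 3.67) and Ly6a (0.392 to 3.56) had overlapping groups. Itm2a, a membrane protein found in endothelium and other cells, was steady at 6.51 to 9.80 CPM. For Bsg the KO libraries had 321, 456, 330 and 477 CPM and the Control libraries 377, 390, 383 and 380, so the Control values lay within the KO range.

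**Figure D5:**
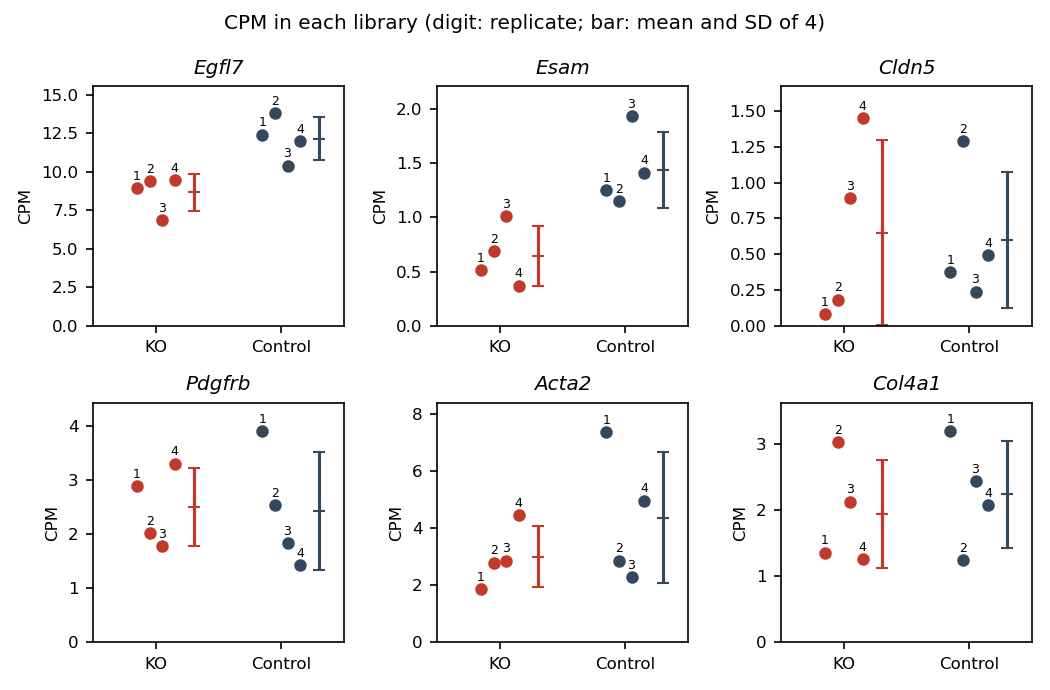
CPM of 6 vascular genes in each library (points, numbered by replicate) with the mean and SD of 4 libraries (bars), in KO and Control. Egfl7 and Esam show no overlap between the groups, and Cldn5, Pdgfrb, Acta2 and Col4a1 overlap.

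Receptor kinases of endothelial cells were among the least abundant genes. Flt1 (VEGF receptor 1, a decoy for VEGF) had 0.453, 2.18, 1.68 and 1.29 CPM in KO replicates 1 to 4 and 8.16, 1.43, 0.768 and 0.873 in Control replicates 1 to 4. Control replicate 1 alone was high, with 477 reads, and the other 7 libraries overlapped. Its log2 fold change of -1.01 (SE 0.90, edgeR adjusted p = 0.682) became 0.45 without that library. Kdr, the main signalling receptor for VEGF, ranged from 0.212 to 1.31 CPM, and the angiopoietin receptor Tek from 0 to 0.955. The orphan relative Tie1 was not tested. It had 49 reads in KO replicate 4 (1.51 CPM), 34 in Control replicate 1 (0.582 CPM) and 0 to 23 in the other libraries.

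All 4 transporters of the barrier were below 0, none passed, and the median was -0.49. Slco1a4, which carries organic anions, was at 0.268, 0.436, 0.866 and 1.54 CPM in KO and 3.97, 0.259, 0.344 and 1.37 in Control, a log2 difference of -0.96 (SE 1.01, edgeR adjusted p = 0.715). As for Flt1, Control replicate 1 was the high library, and the fold change was 0.23 without it. Abcb1a, which encodes the drug efflux pump P-glycoprotein, was at 0.367 to 1.02 CPM in KO and 0.165 to 2.23 in Control. The efflux pump Abcg2 was at 2.20 to 4.50 and 2.71 to 4.95 CPM. Slc2a1 was at 21.6, 31.6, 22.4 and 32.3 CPM in KO and 34.0, 30.0, 28.3 and 27.1 in Control, with overlap.

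Of the endothelial transcription factors, Erg, an ETS factor, varied from 0.0924 to 1.91 CPM in KO and from 0.118 to 1.11 in Control. Sox18 was at 1.09 to 2.16 and 1.06 to 2.12 CPM. Sox17, which marks arterial endothelium, was not tested and had 48 reads in Control replicate 1 and 1 to 20 in the others. Both tested factors were above 0.

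The 7 pericyte genes had 4 values below 0 and 3 above, with a median of -0.17, and none passed. Pdgfrb encodes the receptor that keeps pericytes on vessels. It was at 2.89, 2.02, 1.78 and 3.30 CPM in KO replicates 1 to 4 and 3.90, 2.54, 1.83 and 1.43 in Control replicates 1 to 4, with means of 2.50 ± 0.714 and 2.43 ± 1.09 (SD, n = 4 each; log2 fold change 0.04, SE 0.37, edgeR adjusted p = 0.984). KO replicate 1, low for most vascular genes, was the second highest KO library here. Rgs5, a G protein regulator abundant in pericytes, was at 1.73, 3.86, 5.57 and 9.30 CPM in KO and 12, 2.23, 2.33 and 7.88 in Control. Vtn (vitronectin) was at 1.88, 3.65, 5.49 and 10.5 CPM in KO and 9.48, 2.33, 1.99 and 5.91 in Control. In both genes KO replicate 4 and Control replicate 1 were high and KO replicate 1 and Control replicates 2 and 3 low. The pair that forms the pericyte KATP channel, Kcnj8 (the pore) and Abcc9 (its sulfonylurea receptor), ranged from 0.0941 to 2.53 and from 1.30 to 3.56 CPM, each with its highest value in Control replicate 1. Higd1b (0.138 to 1.79 CPM) and Ndufa4l2 (0.0206 to 0.678 CPM), which encode mitochondrial proteins enriched in pericytes, were highest in KO replicate 4. The summed level of the 7 genes was 9.19 to 30.2 CPM in KO and 9.06 to 33.3 in Control.

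Of the 3 contractile genes of smooth muscle 2 were below 0 and 1 above, and none passed. Acta2 encodes smooth muscle actin. It was at 1.88, 2.80, 2.87 and 4.47 CPM in KO replicates 1 to 4 and 7.38, 2.87, 2.30 and 4.97 in Control replicates 1 to 4. The groups overlapped, with means of 3.0 ± 1.08 and 4.38 ± 2.30 (SD, n = 4 each; log2 fold change -0.55, SE 0.45, edgeR adjusted p = 0.643). Without Control replicate 1 the value was -0.18. Tagln (transgelin) was at 0.309 to 2.10 CPM in KO and 0.729 to 2.45 in Control. Myl9, the regulatory myosin light chain whose CArG box is printed above, was at 3.26, 3.19, 2.94 and 16.3 CPM in KO and 7.62, 6.21, 3.87 and 6.71 in Control, so that KO replicate 4 was above all Control libraries and the other 3 KO libraries below them.

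Basement membrane and matrix genes had 3 values below 0 and 1 above, with a median of -0.24, and none passed. Col4a1 and Col4a2 encode the collagen IV chains that assemble together. They lie head to head on chromosome 8, Col4a1 from 11198423 to 11312826 on the minus strand and Col4a2 from 11312805 to 11449287 on the plus strand, so that their first exons overlap. Col4a1 was at 1.36, 3.03, 2.13 and 1.26 CPM in KO replicates 1 to 4 and 3.20, 1.25, 2.44 and 2.08 in Control replicates 1 to 4 (log2 fold change -0.20, SE 0.40, edgeR adjusted p = 0.908), with overlap. Col4a2 was at 5.63, 9.94, 6.01 and 5.58 CPM in KO and 10.3, 7.79, 9.05 and 6.16 in Control, and its highest KO library, replicate 2, was also the highest KO library for Col4a1. Igfbp7, a secreted protein of vessel walls, ranged from 1.53 to 8.07 CPM. Sparc was at 496, 499, 593 and 1096 CPM in KO and 1023, 736, 824 and 677 in Control. Its KO replicate 4 was the highest of the 8 libraries, and the other 3 KO libraries lay below all Control libraries. Without KO replicate 4 Sparc had the lowest adjusted p of the vascular genes in that fit, 0.052, which did not pass.

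Further vascular genes were read from the same fit. Over lists of 26 tested endothelial genes, 27 barrier genes, 26 ligands, receptors and Notch genes, 22 mural genes, 17 basement membrane genes and 13 genes of perivascular fibroblasts, 0 passed in either direction, and medians ran from -0.22 to 0.06. Fold changes below 0 were 18 of 26, 13 of 27, 13 of 26, 15 of 22, 12 of 17 and 7 of 13. The gene with the smallest p was Tspan12, a partner of the Norrin receptor Frizzled 4 in barrier formation, at 18.2 to 25.5 CPM in KO and 30.4 to 38.0 in Control with no overlap (-0.60 on the log2 scale, SE 0.14, edgeR adjusted p = 0.094, DESeq2 adjusted p = 0.0122, range over alternatives 0.0122 to 0.283). Tgfbr2, a TGF-beta receptor, was at 0.969 to 2.42 CPM in KO and 2.66 to 7.17 in Control, again with no overlap (-1.28, SE 0.43, edgeR adjusted p = 0.177, and DESeq2 adjusted p = 0.041, range 0.041 to 0.619). Apln, the peptide apelin of tip endothelial cells that neurons also make, was at 37.9 to 50.9 CPM in KO and 27.9 to 34.6 in Control, also with no overlap (0.45, SE 0.12, edgeR adjusted p = 0.201). Ramp2, which turns a calcitonin-family receptor into an adrenomedullin receptor, was at 4.31 to 7.61 CPM in KO and 7.6 to 10.8 in Control (-0.65, SE 0.22, edgeR adjusted p = 0.290). Among mural genes Smtn (-1.06) and Mcam (-0.53) had the smallest p, and among basement membrane genes Nid2 (1.43), and none of the 3 passed. Nid2 was at 0.647 to 1.40 CPM in KO and 0.0794 to 0.582 in Control, with no overlap. Its value in Control replicate 3 was at the level of 3 reads.

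Of the lists for other cells, 1 gene passed, the myelin claudin Cldn11 (-0.81 on the log2 scale, SE 0.20, edgeR adjusted p = 0.0375). Its call was lost, at adjusted p of 0.0633 to 0.158, on leaving out any single library but KO replicate 4. All 11 oligodendrocyte markers, 10 of 11 microglia markers and 7 of 10 astrocyte markers were below 0, against 22 of 35 vascular genes, and medians were -0.35, -0.49, -0.10 and -0.27. Below 0 were also 6 of 7 ependymal markers, 2 of 10 neuron markers, 0 of 10 Otp-lineage markers and 0 of 8 housekeeping genes (medians -0.35, 0.12, 0.45 and 0.11). Whether the vascular median differs from these was not tested.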

How the data were processed

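The authors deposited 1 table of raw read counts per gene symbol for each of 8 libraries. The submitters' processing notes name TopHat2 2.0.9, HTSeq, DESeq2 and the build mm10. Annotation, strand setting and filters: not given in the sources used here. Per the labels' protocols, 10 ng of TRAP RNA was amplified before library construction, so copies of 1 molecule can be counted repeatedly. Library sizes and tests covered gene rows only, without 92 spike-in rows and 5 counter rows. The counter rows, mostly alignments that were not unique, were 72.6% to 90.2% of all records.

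KO was compared with Control by the quasi-likelihood test of edgeR 4.0.16 under R 4.3.3 (genes kept by filterByExpr with minimum count 10 and minimum total 15, TMM scaling, robust fit, 8 libraries, no covariate), with Benjamini-Hochberg adjustment over 15438 genes and a threshold of 0.05, and tested on simulated data. CPM uses TMM-scaled library sizes. SE is that of the difference of mean log2 CPM with a prior count of 2, computed apart from the edgeR fold change. Positions and exon lengths are from GENCODE vM21. DESeq2 1.42.0, other scalings and filters, a replicate block and leaving out libraries were alternatives. The lowest chi-square per degree of freedom over 28 pairs of libraries was 25.9, where sampling noise gives about 1, so no library repeats another.

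The genes and lists were chosen with earlier results of these data known. Fold changes are printed for genes past the threshold, genes without overlap, the 6 of smallest p, Cldn5, Pdgfrb, Acta2, Col4a1 and Cic, and up to 2 genes of smallest p from each other list. Values per library for Flt1, Emcn, Slco1a4 and other genes outside the fixed set, Sparc's p and the ETS motifs were added after the values were seen.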

Additional observations from a re-analysis of the deposited data

Results flagged for a closer look

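In groups of 4, 8 of 74 groups examined (37 genes in 2 groups) held a value set apart from the other 3 by Dixon's test (10.8%). The nominal rate of that test, 1 in 20, holds for normally distributed values in independent groups. The values here were untransformed CPM of genes that share the same libraries, so 10.8% is not compared with it. Of the 8 values flagged, 4 lay in Control replicate 1. Flt1 was at 8.16 CPM there against 0.768 to 1.43 in the other Control libraries, Tie1 at 0.582 against 0 to 0.0895, Sox17 at 0.822 against 0.0224 to 0.106 and Sox18 at 2.12 against 1.06 to 1.16. A further 3 lay in KO replicate 4. Myl9 was at 16.3 CPM there against 2.94 to 3.26 in the other KO libraries, Sparc at 1096 against 496 to 593 and Abcb1a at 1.02 against 0.367 to 0.470. The last was Col4a2 in KO replicate 2, at 9.94 CPM against 5.58 to 6.01.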

How the results depend on the processing

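In all 17 alternative settings, and with both Control replicate 1 and KO replicate 4 left out (chosen after seeing the data), 0 vascular genes passed in either direction. The count of fold changes below 0 ran from 12 to 30 when single libraries were left out (19 with both left out) and was 14 of 24 with a mean of at least 1 CPM required, where fewer genes are tested. The median ran from -0.44 to 0.19 when single libraries were left out and from -0.30 to -0.07 otherwise. Genes called among all tested were 40, against 26 with total counts only, 182 with DESeq2, 65 with the replicate block, 16 with both left out and 14 to 53 when single libraries were left out. Same-numbered KO and Control libraries deviated together with correlations of -0.048 to 0.103, so the numbers were not taken as pairs, and 1 of 4 KO libraries correlated best with its own number. With the replicate block Cldn5 turned to -0.26. Single libraries left out moved Cldn5 between -0.66 and 0.79, Pdgfrb between -0.15 and 0.37, Flt1 between -1.32 and 0.45, Slco1a4 between -1.52 and 0.23 and Col4a1 between -0.51 and 0.02. With both libraries left out Flt1 was 0.49, Cldn5 -0.82 and Col4a1 0.18. The cause of these moves was not tested. Egfl7, Esam, Acta2 and Emcn were below 0 in every alternative that tested them, with adjusted p of 0.169 or more where one was given (DESeq2 gave none for Emcn). Genes near 1 CPM rest on 32 to 58 reads, and the part of depth in their spread was not tested.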
